A study of Mus musculus with 2 samples.

Results

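The myosin-binding protein C and myomesin genes, 8 of the 55451 genes measured in mouse heart, were taken by symbol: Mybpc1, Mybpc2, Mybpc3, Mybph and Mybphl of the myosin-binding protein C family, and Myom1, Myom2 and Myom3 of the myomesin family. The rule uses the symbols alone. Total RNA of hearts from male B6CASTF1/J mice, an F1 hybrid of the laboratory strain B6 and the wild-derived strain CAST, was sequenced at an age of 36 days after reduction of ribosomal RNA. The labels name no treatment and no altered allele, and they give a single group with 2 biological replicates, called hearts here. Both hearts carry the same donor entry, and the labels do not say whether they came from separate animals, so the spread between them may be partly technical. Each library was quantified by the authors in 2 ways: the first quantification assigned reads aligned to the transcriptome, and the second assigned reads directly from an index. An expected count is the estimated number of reads of a gene. Values are from the first quantification unless the second is named. The libraries held 41846508 and 42481559 expected counts in replicates 1 and 2, of which 203838 and 199815 fell on spike-ins, synthetic RNAs added to each library.

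Myosin-binding protein C proteins sit in regular stripes on the thick filament, bind myosin and also reach the thin filament, and phosphorylation of the cardiac form loosens its hold on myosin. The family has a slow skeletal form (Mybpc1), a fast skeletal form (Mybpc2), a cardiac form (Mybpc3) and shorter relatives, myosin-binding protein H (Mybph) and its homologue Mybphl. Myomesins cross-link thick filaments at the M-band in the middle of the sarcomere and bind titin there. Myom1 is found in all striated muscle, Myom2, also called M-protein, is known from fast skeletal fibres and heart, and Myom3 from slow and intermediate skeletal fibres.

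The tissue label was checked against marker genes. All 8 cardiomyocyte markers lay between 362 and 8077 TPM, a level corrected for transcript length and library size, as the mean of both hearts. The highest were Myh6, the adult cardiac myosin heavy chain, at 8077 ± 617 TPM, the cardiac actin Actc1 at 4917 ± 375 TPM and the cardiac troponin I Tnni3 at 3513 ± 125 TPM. Of 18 skeletal muscle markers 5 reached 1 TPM in both hearts. Myog, a regulator of skeletal muscle differentiation, had 0 counts in both hearts. Such a 0 leaves room for 3 counts, which is 0.0717 CPM in replicate 1 and 0.0706 CPM in replicate 2. Levels in bulk tissue do not tell fewer cells of a type from less RNA per cell. Means are given ± SD over the 2 hearts (n = 2 throughout), and every ratio between hearts is log2 of replicate 1 over replicate 2, with a 95% counting interval in parentheses that holds no spread between animals.

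In this heart tissue 5 of the 8 genes reached 1 TPM in both hearts, where 49.9% of 21938 nuclear protein-coding genes did so. In the second quantification the same count was 5 of 8, where 51.3% of genes did so. Mybpc3 had the highest level of the 8, followed by Myom1, Myom2, Mybphl and Mybpc2, and the other 3 genes stayed under 1 TPM. This order was the same in both hearts and in both quantifications. The mean ± SD ranges of neighbours in the order did not overlap except for Myom3 and Mybpc1, which together rested on few counts. The 8 genes summed to 1176 TPM in replicate 1 and 1317 TPM in replicate 2, and nearly all of this came from Mybpc3, Myom1 and Myom2.

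**Figure D1:**
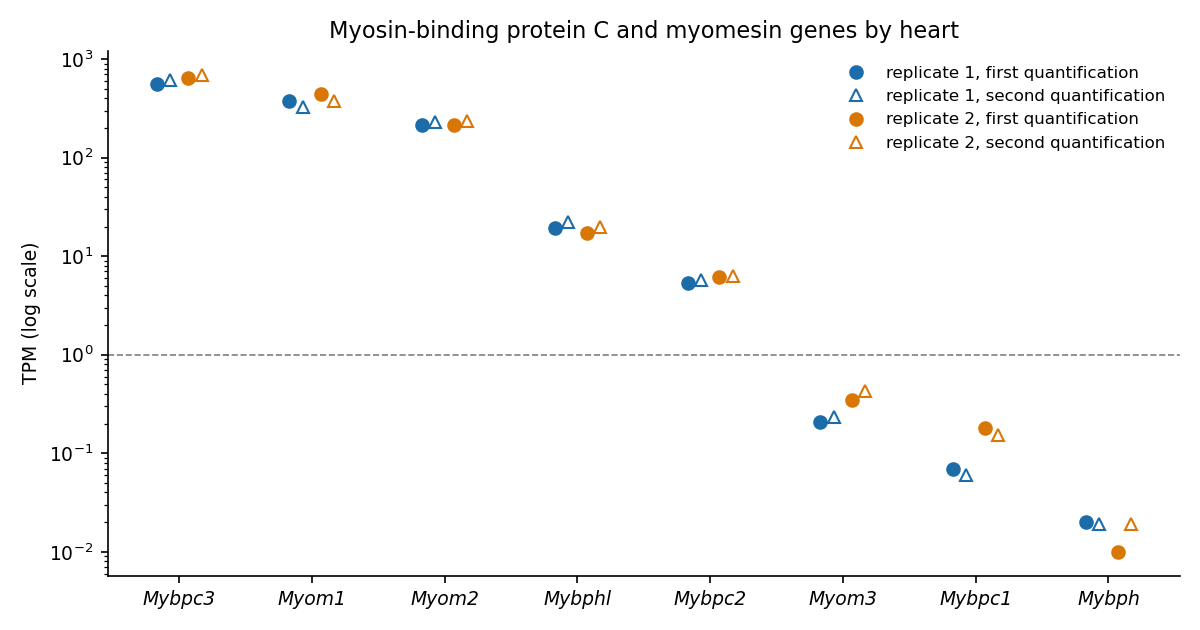
The plot gives the level of each of the 8 genes in TPM on a log axis, in replicates 1 (blue) and 2 (orange), as circles for the first quantification and open triangles for the second, with a dashed line at 1 TPM. Mybpc3, Myom1 and Myom2 lie above 200 TPM, Mybphl and Mybpc2 between 5 and 23 TPM, and Myom3, Mybpc1 and Mybph below the line.

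Mybpc3, the cardiac form, lies on the plus strand of chromosome 2 from 91118144 to 91136516 (mm10). It had 559 TPM in replicate 1 and 636 TPM in replicate 2, from 76510 and 87345 expected counts. Replicate 2 was the higher of the hearts, and the log2 ratio was -0.15 (-0.16 to -0.13). The mean of 598 ± 54.2 TPM placed it at rank 74 of the 21938 nuclear protein-coding genes, between Ndufb9, a subunit of respiratory complex I, at 600.3 TPM and Cox7c, a subunit of cytochrome c oxidase, at 593 TPM. The second quantification gave 615 TPM in replicate 1 and 696 TPM in replicate 2, with the same heart higher.

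Mybpc3 held 95.8% of its family's TPM in replicate 1 and 96.4% in replicate 2, a mean of 96.1% ± 0.467. By expected counts, which favour long transcripts, it held 98.3%. Mybphl held 2.94% ± 0.476 and Mybpc2 0.923% ± 0.000727 of the family's TPM. Mybpc1 held 0.0196% ± 0.0108 and Mybph 0.0025% ± 0.0013, on at most 11 counts in either heart.

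Nearly all Mybpc3 TPM was assigned to Mybpc3-203, a transcript of 4163 bases in 35 exons, with 99.35% in replicate 1 and 99.43% in replicate 2. Mybpc3-201 differs from it by a shortened exon of 9 in place of 12 bases, and Mybpc3-202 lacks a 3-base exon and starts exon 2 of the main transcript 20 bases later, at 91119183. Both end 6 bases earlier. The short exons are shown because the transcripts differ in them, beside the differences in exon 2 and at the end. In the lines below capitals mark the short exon, and lower case marks the neighbouring exon bases as joined in the transcript.

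Mybpc3-203, 3-base exon, chr2:91122340-91122342, plus strand: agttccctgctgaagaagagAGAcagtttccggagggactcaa
Mybpc3-202, the same stretch without that exon: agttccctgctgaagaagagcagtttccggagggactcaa
Mybpc3-203, 12-base exon, chr2:91122636-91122647, plus strand: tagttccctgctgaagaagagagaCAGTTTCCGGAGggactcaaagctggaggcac
Mybpc3-201, the same exon with 9 bases, chr2:91122639-91122647, plus strand: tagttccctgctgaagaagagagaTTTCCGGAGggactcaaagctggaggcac

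Mybpc3-202, which lacks the 3-base exon, received 0.26% of the gene's TPM in replicate 1 and 0.28% in replicate 2. Mybpc3-201, whose exon starts 3 bases later, received 0.39% in replicate 1 and 0.29% in replicate 2. Both stayed under 0.5% in the second quantification as well. The main transcript thus held nearly all Mybpc3 RNA in both hearts by either way of counting.

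The other members of the family were much lower. Mybphl (chromosome 3, 108364911 to 108380057, plus strand) encodes the relative of myosin-binding protein H that is known in mouse from atria and the ventricular conduction system. It had 19.1 TPM in replicate 1 and 17.1 TPM in replicate 2, from 757 and 682 expected counts, a mean of 18.1 ± 1.39 TPM. It was the only one of the 5 genes above 1 TPM whose interval lay wholly above 0 (0.20, 0.044 to 0.35), with replicate 1 the higher heart. The ratio was 0.17 with library totals and 0.12 with spike-in totals as the scale. The interval was not recomputed for these scales. Mybphl ranked 3093 in a tie of 3, beside the LIM-domain gene Csrp1 and Scaf1 at the same mean level. Per Mybpc3 its level was 3.42% in replicate 1 and 2.70% in replicate 2, and its only annotated transcript held all of its TPM.

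Mybpc2 (chromosome 7, 44501699 to 44524656, minus strand) encodes the fast skeletal form. It had 5.39 TPM in replicate 1 and 6.08 TPM in replicate 2, from 637 and 722 expected counts. Replicate 2 was higher by a log2 ratio of -0.14, with an interval of -0.29 to 0.020 that includes 0. The ratio was -0.16 with library totals and -0.21 with spike-in totals as the scale, for which the interval was not recomputed. Mybpc2 ranked 6960, between Them4, an acyl-CoA thioesterase gene, at 5.74 TPM and the nucleoporin gene Nup54 at 5.73 TPM. Mybpc2-201, its long transcript with 3408 coding bases, held 100% of its TPM in both hearts. Its level per Mybpc3 was 0.964% in replicate 1 and 0.956% in replicate 2. So close a match is finer than the counting interval of Mybpc2 can resolve.

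Markers of skeletal muscle are given here because Mybpc2 is known from that tissue. The 18 skeletal muscle markers summed to 32.6 TPM in replicate 1 and 29.7 TPM in replicate 2. The light chain Myl1 at 15.6 ± 1.54 TPM, the slow troponin T Tnnt1 at 8.08 ± 0.962 TPM and the calcium buffer Casq1 at 3.31 ± 0.184 TPM made up most of this sum. The fast myosin heavy chain Myh4 had 0 counts in replicate 1 and 5 in replicate 2, Myh1 and Myh2 had 0 counts in replicate 1 and 1 in replicate 2, and the fast troponin C Tnnc2 had 1 in each. Others of the list were higher than these. Among them were Tnni2 at 1.18 ± 0.113 TPM and Mylpf at 0.65 ± 0.410 TPM. Cacna1s had 1.26 TPM in replicate 1 and 1.27 TPM in replicate 2, and Actn3 had 16 counts in replicate 1 and 10 in replicate 2. In the second quantification Myh1 was at 0.241 TPM in replicate 1 and 0.152 TPM in replicate 2, and Mybpc2 at 5.70 and 6.28 TPM. The part of skeletal muscle RNA in the level of Mybpc2 was not tested.

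Mybpc1 (chromosome 10, 88518279 to 88605152, minus strand), the slow skeletal form, had 6 expected counts in replicate 1 and 11 in replicate 2, or 0.07 and 0.18 TPM. Mybph (chromosome 1, 134193448 to 134201232, plus strand), the gene of myosin-binding protein H, had 1 expected count in each heart. The Mybph count is under the 3 counts that a count of 0 allows. For Mybpc1 the log2 ratio of -0.74 had an interval of -2.55 to 0.73, so no difference between hearts could be detected at this depth. Its counts were spread over Mybpc1-201, Mybpc1-202, Mybpc1-203 and Mybpc1-205, with 0.18 counts on Mybpc1-204 only in the second quantification of replicate 1. In the first quantification Mybpc1-201 held 51.18% in replicate 1 and 19.01% in replicate 2. The single count of Mybph was assigned to Mybph-201 in replicate 1 and to Mybph-202 in replicate 2. At such counts many genes share a rank, and no neighbours in rank are named.

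The myomesin family was about as abundant as the myosin-binding protein C family. The 3 myomesin genes summed to 592 TPM in replicate 1 and 658 TPM in replicate 2, and the 5 myosin-binding protein C genes to 584 TPM in replicate 1 and 659 TPM in replicate 2. The level of myomesins was 101% of that of myosin-binding protein C genes in replicate 1 and 99.8% in replicate 2. The second quantification gave 85.7% ± 1.45, so the near equality depends on how the reads were assigned. Among the 5 genes above 1 TPM, Myom1 differed most between the quantifications, with a mean TPM in the second of 0.856 times that in the first.

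Myom1 (chromosome 17, 71002633 to 71126856, plus strand) encodes the myomesin found in all striated muscle. It had 378 TPM in replicate 1 and 441 TPM in replicate 2, from 47533 and 56009 expected counts. Replicate 2 was higher, with a log2 ratio of -0.19 (-0.21 to -0.17). Its mean of 409.5 ± 44.2 TPM gave rank 125, between Atp5j2, an ATP synthase subunit, at 412 TPM and Hspb7, a small heat shock protein of heart and muscle, at 408 TPM. In the second quantification it ranked lower, at 205, with 327 TPM in replicate 1 and 375 TPM in replicate 2. The estimated counts there, 52359 in replicate 1 and 60923 in replicate 2, were higher than in the first.

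Myom2 (chromosome 8, 15057653 to 15133541, plus strand), the gene of M-protein, had 213 TPM in replicate 1 and 217 TPM in replicate 2. Its 34729 and 35594 expected counts gave a log2 ratio of 0.0095 (-0.012 to 0.031), and the hearts were level within counting error. The sign of that ratio turned to -0.014 with library totals and to -0.064 with spike-in totals as the scale. Its mean of 215 ± 2.38 TPM gave rank 250, between the ribosomal protein gene Rpl37a at 217 TPM and the spectrin gene Sptbn1 at 215 TPM. Myom2 per Myom1 was 56.4% in replicate 1 and 49.2% in replicate 2.

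Myom3 (chromosome 4, 135759715 to 135815564, plus strand), known from slow and intermediate skeletal fibres, had 19 expected counts in replicate 1 and 31 in replicate 2, or 0.21 and 0.35 TPM. Replicate 2 was higher in number, but the interval of the log2 ratio of -0.63 ran from -1.57 to 0.21. Most of these counts were assigned to Myom3-203, an intron-retaining transcript of 2551 bases, with 92.16% of the gene's TPM in replicate 1 and 95.07% in replicate 2. Of its 2551 bases 2446 are also part of the protein-coding Myom3-201, which leaves 105 bases of its own. With so few counts the split between these transcripts is uncertain. The protein-coding transcript Myom3-201 was at 0.02 TPM in each heart. Myom3 held 0.0443% ± 0.0125 of the family's TPM.

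Myom1 held 63.9% of myomesin TPM in replicate 1 and 67.0% in replicate 2, a mean of 65.5% ± 2.19, and Myom2 held 34.5% ± 2.20. By expected counts the share of Myom1 was 59.4%, and in the second quantification it was 60.0%. With protein-coding transcripts alone it was 56.1% ± 2.54. Myom1 was the higher of the pair in both hearts under each of these measures.

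The transcripts of Myom1 were split differently by the 2 quantifications. Myom1-203, the most abundant protein-coding transcript, held 55.44% of the gene's TPM in replicate 1 and 57.52% in replicate 2 in the first quantification, and 67.2% in replicate 1 and 67.5% in replicate 2 in the second. Myom1-208, a transcript of 941 bases that the annotation calls a processed transcript, held 33.70% in replicate 1 and 33.26% in replicate 2 in the first quantification. These are shares of TPM, which is corrected for transcript length. By expected counts it held a smaller part, 3613 of the gene's 47533 in replicate 1 and 4172 of 56009 in replicate 2. In the second quantification it held 2.89% of TPM in replicate 1 and 2.12% in replicate 2. Of its 941 bases 860 are also part of Myom1-203, which leaves 81 bases of its own, in its first exon (chr17:71120904-71120984).

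Myom1-209, which starts upstream at 71002633, went the other way, with 0.03% in replicate 1 and 0.02% in replicate 2 in the first quantification and 6.41% in replicate 1 and 6.02% in replicate 2 in the second. Its first exon overlaps Myl12a, a non-muscle myosin light chain gene on the opposite strand, which had 336 TPM in replicate 1 and 398 TPM in replicate 2. The part of Myl12a in the reads assigned to this transcript was not tested. Protein-coding Myom1 transcripts summed to 244 TPM in replicate 1 and 287 TPM in replicate 2 in the first quantification. In the second they summed to 310.5 TPM in replicate 1 and 359 TPM in replicate 2, so the quantifications differed in opposite directions for the coding sum and for the gene's total.

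**Figure D2:**
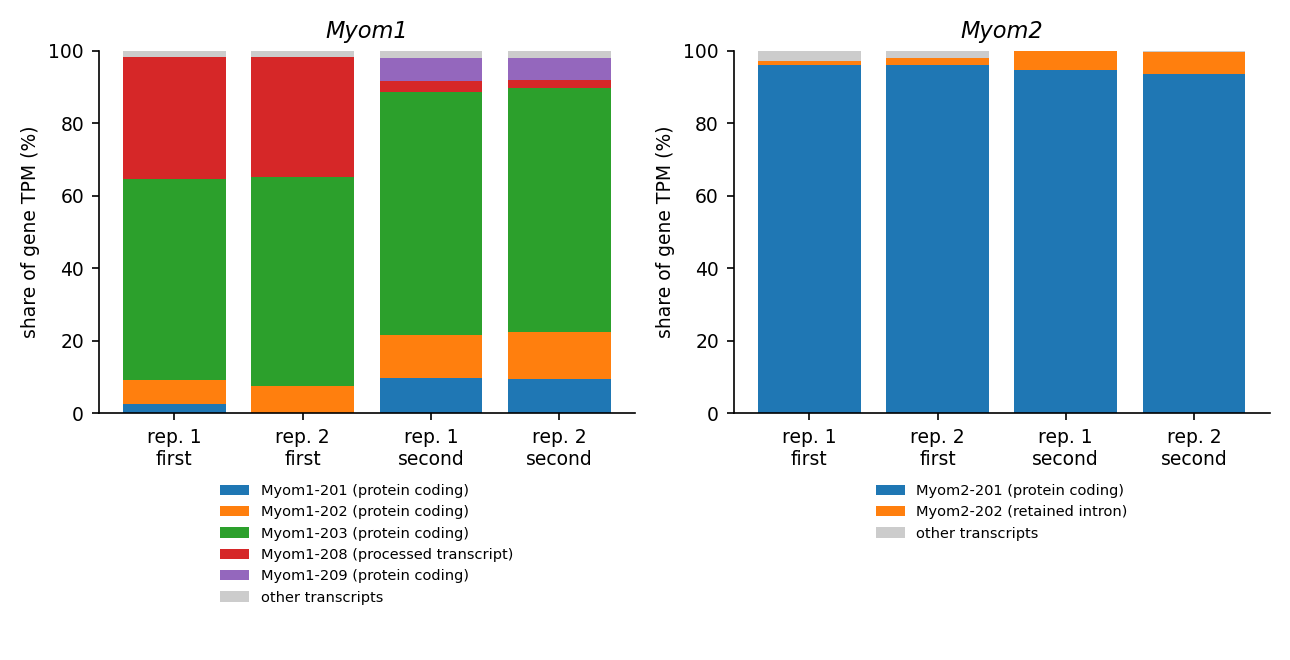
Stacked bars give the share of each gene's TPM (percent) by transcript for Myom1 (left) and Myom2 (right), in replicates 1 and 2 of the first and the second quantification. Myom1-208 takes 33.70% and 33.26% of Myom1 in the first quantification and 2.89% and 2.12% in the second, while Myom2-201 holds over 90% of Myom2 in every bar.

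Alternative splicing of Myom1 is known to add a flexible segment to the protein, and the form that carries it (EH-myomesin) marks the embryonic heart. Myom1-202 contains an exon of 294 bases, exon 18 of 38, that Myom1-203 lacks. The annotation does not name this exon. It is shown because Myom1-202 holds it and Myom1-203 does not, and capitals mark all of its bases. Myom1-202 has 5648 bases and Myom1-203 has 5316, so they also differ outside this exon, and their split need not rest on it alone.

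Myom1-202, 294-base exon, chr17:71082203-71082496, plus strand: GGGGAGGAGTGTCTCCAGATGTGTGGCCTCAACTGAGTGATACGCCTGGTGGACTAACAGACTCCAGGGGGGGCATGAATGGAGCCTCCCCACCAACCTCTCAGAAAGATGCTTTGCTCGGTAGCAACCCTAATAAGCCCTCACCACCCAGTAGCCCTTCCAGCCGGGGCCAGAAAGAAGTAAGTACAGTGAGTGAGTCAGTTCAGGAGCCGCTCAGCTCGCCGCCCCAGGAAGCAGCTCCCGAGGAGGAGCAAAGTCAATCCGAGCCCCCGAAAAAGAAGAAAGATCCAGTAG

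Among the 3 full-length coding transcripts of Myom1 (201, 202 and 203), the one with the 294-base exon held 10.1% of TPM in replicate 1 and 11.6% in replicate 2, a mean of 10.8% ± 1.06. The second quantification gave 13.2% in replicate 1 and 14.3% in replicate 2. With Myom1-205, an intron-retaining transcript that also holds the exon, the share was 12.7% ± 1.02. Replicate 2 had the higher share each time, and transcripts without the exon made up the large majority in both hearts.

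A further alternative concerned an exon of 23 bases near the 3′ end of the coding sequence. Myom1-203 uses the downstream of 2 such exons, Myom1-201 the upstream one, and Myom2-201 and Myom3-201 each have a single 23-base exon at the same place in the order. The 4 exons are shown with 20 bases of the joined neighbouring exons on each side in lower case, and capitals mark the 23 bases.

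Myom1-203, downstream exon, chr17:71121126-71121148, plus strand: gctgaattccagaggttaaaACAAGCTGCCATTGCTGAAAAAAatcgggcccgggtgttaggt
Myom1-201, upstream exon, chr17:71120794-71120816, plus strand: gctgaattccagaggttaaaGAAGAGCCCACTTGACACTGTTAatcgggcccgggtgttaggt
Myom2-201, chr8:15130635-15130657, plus strand: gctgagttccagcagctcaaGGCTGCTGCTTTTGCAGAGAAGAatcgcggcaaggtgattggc
Myom3-201, chr4:135810935-135810957, plus strand: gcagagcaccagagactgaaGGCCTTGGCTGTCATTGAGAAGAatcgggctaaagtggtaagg

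The downstream exon of Myom1 matched that of Myom2 at 14 of 23 bases and that of Myom3 at 9, compared base by base without gaps. The upstream exon of Myom1 matched the downstream one at 6 of 23 bases, Myom2 at 6 and Myom3 at 4. The transcript with the upstream exon, Myom1-201, held 3.99% of full-length coding TPM in replicate 1 and 0.0035% in replicate 2 in the first quantification, so the hearts differed and its level could not be fixed there. In the second quantification it held 11.0% in replicate 1 and 10.6% in replicate 2. Myom1-201 has 5354 bases and Myom1-203 has 5316, so they also differ outside the 23-base exons, and the split need not rest on these alone. The downstream exon was the main form in both hearts and both quantifications.

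Myom2 was simpler. Its only protein-coding transcript, Myom2-201 of 5075 bases, held 96.12% of TPM in replicate 1 and 96.08% in replicate 2. Myom2-202, an intron-retaining transcript with 664 of its 3973 bases in common with Myom2-201, held 1.18% in replicate 1 and 1.88% in replicate 2, and in the second quantification 5.23% in replicate 1 and 5.95% in replicate 2. Both hearts thus had little Myom2 RNA outside the coding transcript.

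The 3 myomesin genes lie on different chromosomes and share their exon plan. The main coding transcript of each has 36 coding exons. Counted from the last coding exon, 22 of the 36 have the same length in all 3 genes. All 36 leave the same remainder of coding bases when divided by 3, so that the exons are in phase between the genes. The coding sequences were identical at 61.9% of aligned bases between Myom1 and Myom2, 59.7% between Myom1 and Myom3 and 59.7% between Myom2 and Myom3. Myom1 and Myom2 agreed in the length of 27 exons, more than either did with Myom3, where 22 and 26 were equal.

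**Figure D3:**
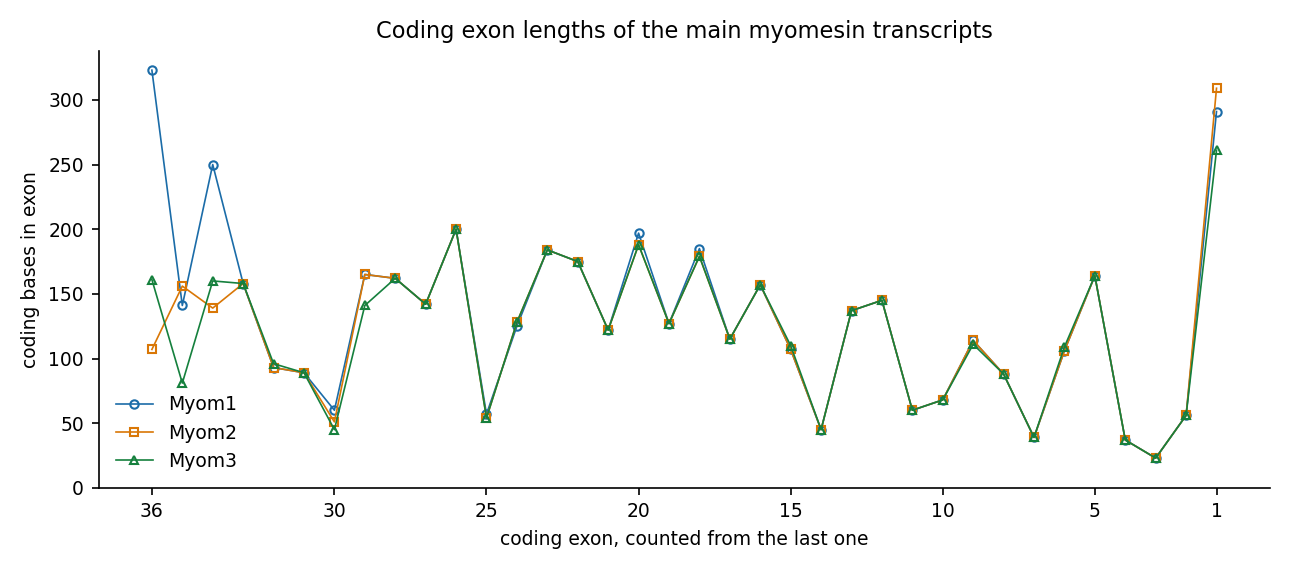
The plot gives the coding bases in each of the 36 coding exons of the main Myom1, Myom2 and Myom3 transcripts, counted from the last exon, with the first exon at the left. The lines coincide over much of the gene and part most at the first 3 coding exons on the left.

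In the myosin-binding protein C family, aligned coding bases were identical at 62.6% between Mybpc1 and Mybpc2 and at 74.0% between Mybph and Mybphl, the lowest and highest of its 10 pairs. No run of 31 bases was shared between transcripts of any 2 of the 8 genes. The assignment of reads between members therefore did not rest on long identical stretches. Mybph shared 46.3% of its 31-base runs with Adora1, the adenosine receptor gene that overlaps it on the opposite strand and had 875 and 940 expected counts in replicates 1 and 2. Mybph kept 1 count in each heart beside them, in libraries that record the strand. Shares of 1.70% to 4.90% with the overlapping genes Gm48752 (Mybpc1), Gm44646 (Mybpc2), Gm12522 (Mybphl) and Myl12a (Myom1) were found, and Mybpc3 shared none. Myom2 shared 1.35% of its runs with 517 other genes and Myom3 0.300% with 2705.

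Of the other overlapping genes, Gm44646 on the opposite strand of Mybpc2 had 2 expected counts in replicate 1 and 0 in replicate 2, and Gm12522 opposite Mybphl had 1 in each. Gm48752 opposite Mybpc1 had 0 in replicate 1 and 1 in replicate 2. Gm15678, a pseudogene within Myom2, and Gm26561, a long noncoding gene spanning Myom1, had 0 counts in both hearts. The nearest genes that do not overlap the 3 abundant members were far lower than they were. Myl12a, which overlaps the start of Myom1, was near the level of Myom1, at 367 ± 43.6 TPM. Mybpc3 lies between Spi1, a transcription factor of myeloid cells, at 1.54 TPM in replicate 1 and 2.29 TPM in replicate 2, and Madd at 2.04 TPM in replicate 1 and 2.45 TPM in replicate 2. Myom2 lies between Gm45274 and Gm7706, both with 0 counts. Myom1 lies between Myl12b at 12.8 ± 2.06 TPM and AC154218.2, which had 0 counts in replicate 1 and 1 in replicate 2. Only Chpt1, a choline phosphotransferase gene next to Mybpc1, was high beside a member near 0, with 130.0 TPM in replicate 1 and 129.6 TPM in replicate 2. Of the remaining neighbours, Fam71e1 beside Mybpc2 was the highest at 1.31 ± 0.191 TPM, and Spib beside Mybpc2, Chil1 beside Mybph and Psrc1 beside Mybphl lay between 0.195 and 0.225 TPM. Gm8435, Gm24517, Gm12525, Gm12988 and Gm13000, next to Mybpc1, Mybph, Mybphl and Myom3, had 0 counts in both hearts.

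Promoters were read from RefSeq on GRCm38.p6, as 250 bases before and 50 bases after each start, and 7 of the 8 genes matched. Myom2 was not matched, so its promoter was not searched for any motif. MEF2 factors and SRF, which binds the CArG box, are known activators of muscle genes, and their consensus motifs were searched on both strands. The MEF2 consensus stood in the promoters of Mybpc3, starting 90 bases before the start, and of Myom3, starting 35 bases before it, and 3.19% of 32851 promoters hold it. The CArG consensus stood in that of Myom1, 99 bases before the start, and 1.63% of promoters hold it. None of the matches overlapped another. These promoters are shown with the MEF2 and CArG matches in capitals, Mybpc3 and Myom1 as abundant genes and Myom3 as a gene with few counts.

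Mybpc3, chr2:91117894-91118193, plus strand: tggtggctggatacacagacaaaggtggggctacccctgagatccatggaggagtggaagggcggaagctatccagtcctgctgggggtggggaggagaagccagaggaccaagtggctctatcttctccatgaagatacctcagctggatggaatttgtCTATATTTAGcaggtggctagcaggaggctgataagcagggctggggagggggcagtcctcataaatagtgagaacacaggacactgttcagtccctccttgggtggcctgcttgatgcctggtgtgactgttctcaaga
Myom1, chr17:71019307-71019606, plus strand: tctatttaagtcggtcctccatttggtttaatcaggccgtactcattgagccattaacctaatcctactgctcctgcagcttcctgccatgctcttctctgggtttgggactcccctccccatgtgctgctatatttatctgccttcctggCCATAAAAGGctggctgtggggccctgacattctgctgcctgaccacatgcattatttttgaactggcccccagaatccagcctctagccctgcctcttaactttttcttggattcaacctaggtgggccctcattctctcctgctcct
Myom3, chr4:135759465-135759764, plus strand: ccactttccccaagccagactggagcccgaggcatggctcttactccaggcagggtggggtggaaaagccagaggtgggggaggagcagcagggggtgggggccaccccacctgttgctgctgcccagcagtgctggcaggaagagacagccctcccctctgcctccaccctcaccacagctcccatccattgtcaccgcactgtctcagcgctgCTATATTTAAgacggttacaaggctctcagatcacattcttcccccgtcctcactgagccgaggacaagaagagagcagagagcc

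Of the 2 genes with a MEF2 match, Mybpc3 was at 598 ± 54.2 TPM and Myom3 at 0.28 ± 0.0990 TPM. The short motif TATAAA, found in 13.6% of promoters, stood in Mybph on the minus strand, and GATAA, found in 25.4%, in Mybpc3, Mybphl and Myom1. A match of letters is a description of the window and says nothing of binding. The RNA of the factors themselves was present, with Mef2a at 47.9 ± 1.84 TPM, Mef2d at 43.1 ± 3.20 TPM, Mef2c at 20.9 ± 0.594 TPM and Srf at 31.8 ± 0.276 TPM.

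The hearts were less than 1.5-fold apart for each of the 5 members averaging at least 50 expected counts. A gene counted as called where its expected counts averaged at least 50 and its hearts were at least 2-fold apart, which is a rule of size and not a test. Of the 5 members with such counts 0 were called, where 1.28% of 12536 genes were called, 1.01% higher in replicate 1 and 0.279% higher in replicate 2. At so low a share, 0 of 5 does not set the members apart from other genes. No p-value can be given, since an exact sign permutation of 2 hearts gives at best p = 0.5. At 1.5-fold the count of members was also 0, where 4.28% of genes passed. With counts of at least 10 on average it was 0 of 6 members at 2-fold, where 3.55% of 15744 genes were called. In the second quantification it was 0 members as well, where 1.15% of genes were called with counts of at least 50 and 3.28% with counts of at least 10.

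The 6 members with a mean count of 10 or more had a median log2 ratio of -0.14, from -0.63 for Myom3 to 0.20 for Mybphl, and 4 of the 6 were higher in replicate 2. Over the 15744 genes with such counts the median was -0.0010, and 7910 were higher in replicate 2. With 6 members, 4 of 6 does not set them apart from that share. Among the genes averaging at least 50 counts, 71.6% had a smaller absolute ratio than Mybphl, 70.9% than Myom1, 61.0% than Mybpc3, 58.4% than Mybpc2 and 4.95% than Myom2. Myom3 averaged 25 counts, under that bound, and its interval includes 0, so no such share is given for it. The quartiles of the log2 ratio over the genes averaging at least 50 counts were -0.10 and 0.11. Quartiles by definition leave as many genes outside as between them. Of the 5 members with such counts only Myom2 lay between the quartiles.

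**Figure D4:**
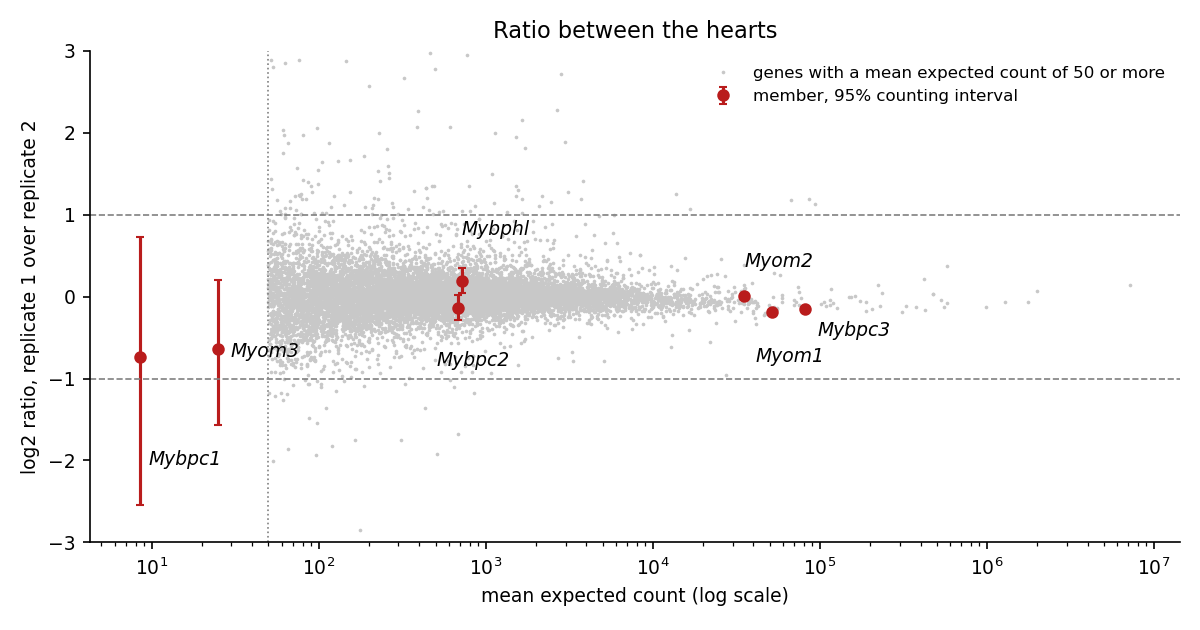
The plot sets the log2 ratio of replicate 1 over replicate 2 against the mean expected count (log axis), in grey for genes averaging at least 50 counts and in red for 7 members with 95% counting intervals. No member passes the dashed 2-fold lines, Mybph with 1 count in each heart is left out, and 14 genes beyond 3 log2 units are not drawn.

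Proteins that work with the members were described by lists. The thick filament and titin list, 10 genes that form or carry the filament, had a median log2 ratio of -0.073, with 8 of 10 higher in replicate 2 and 0 called. Myh6 was at 7641 TPM in replicate 1 and 8514 TPM in replicate 2, and the light chains Myl2 and Myl3 averaged 6399.5 ± 401 and 4086 ± 148 TPM. Measured against the sum of Myh6 and Myh7, the cardiac myosin heavy chains, myosin-binding protein C genes stood at 6.97% in replicate 1 and 7.06% in replicate 2. Myomesins stood at 7.06% in replicate 1 and 7.04% in replicate 2. Both families thus kept nearly the same level per myosin in the 2 hearts, and the second quantification gave 7.43% ± 0.0199 and 6.37% ± 0.125.

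The M-band partners, 15 genes including titin, creatine kinases and signalling proteins found at the M-band, had a median of -0.081, with 11 of 15 higher in replicate 2 and 0 called. The muscle creatine kinase Ckm at 1582 ± 132 TPM, the giant protein titin (Ttn) at 1097 ± 77.3 TPM and the mitochondrial creatine kinase Ckmt2 at 1024 ± 126 TPM were the highest. Myomesins amounted to 56.8% of the TPM of Ttn in replicate 1 and 57.1% in replicate 2. The calpain gene Capn3, known from skeletal muscle, was the single M-band partner under 1 TPM, at 0.55 ± 0.0990 TPM.

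The kinases and phosphatases that act on myosin-binding protein C or are candidates to do so, 15 genes, had a median of 0.012, which turned to -0.011 with library totals and -0.061 with spike-in totals. All 15 reached 1 TPM in both hearts and 0 were called. The phosphatase subunit gene Ppp1cb at 160 ± 5.69 TPM, Prkaca, which encodes a catalytic subunit of protein kinase A, at 130 ± 3.90 TPM and Ppp1ca at 121 ± 0.474 TPM were the highest. Camk2d, the main cardiac CaM kinase II gene, was at 52.9 ± 1.74 TPM, named for its role. RNA levels say nothing of kinase activity or of phosphorylation.

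The thick filament assembly list, 11 genes of chaperones and transcription factors of sarcomere genes, had a median of -0.040 with 0 called. The methyltransferase Smyd1, which binds myosin, was at 133 ± 7.40 TPM, the chaperone Hsp90aa1 at 75.4 ± 2.28 TPM and the myosin chaperone Unc45b at 69.2 ± 6.88 TPM. Smyd1 is in the M-band list as well, and Ttn is in that list and the thick filament list, so the lists are not independent.

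Chamber markers are given beside Mybphl because that gene is known from atria. Of the 8 atrial markers 7 were higher in replicate 1, with a median log2 ratio of 0.19 and 0 called, and the list summed to 1275 TPM in replicate 1 and 1125 TPM in replicate 2. The natriuretic peptide gene Nppa, the atrial light chain Myl4 and the atrial light chain Myl7 were the highest, at 639 ± 4.99, 269 ± 52.3 and 221 ± 49.8 TPM. Among 6 ventricular markers 5 were higher in replicate 2 and their median was -0.063. The light chains Myl2 and Myl3 and the gene Lbh, at 121 ± 5.49 TPM, were their highest. Mybphl, at 0.20, had the sign of the atrial markers, and the part of tissue composition in its ratio was not tested.

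Adipocyte and erythroid markers differed more between the hearts than the members did. Adipocyte markers had a median log2 ratio of 3.07 with 5 of 6 called, and erythroid markers one of 1.18 with 6 of 7 called, all higher in replicate 1. The called genes were Adipoq, Plin1, Cidec, Ucp1 and Cfd among the adipocyte markers and included Hbb-bs, Hbb-bt, Hba-a1, Hba-a2 and Alas2 among the erythroid ones. The adipocyte markers summed to 76.0 TPM in replicate 1 and 8.58 TPM in replicate 2, and the erythroid markers to 20341 TPM in replicate 1 and 9344 TPM in replicate 2. Fibroblast, endothelial and smooth muscle lists had medians of 0.28, 0.018 and 0.10 with 0 called, and the endothelial median turned to -0.0052 with library totals and -0.056 with spike-in totals. Their highest genes were Dcn, Col3a1 and Col1a1 of the matrix at 159, 156 and 65.0 TPM, Cdh5, Pecam1 and Kdr of endothelium at 57.2, 52.3 and 31.7 TPM, and Smtn, Acta2 and Tagln of smooth muscle at 57.2, 53.6 and 27.1 TPM. The cardiomyocyte markers had a median of -0.080, near that of the thick filament list. The part of these markers in the ratios of Mybpc3 and Myom1 was not tested.

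**Figure D5:**
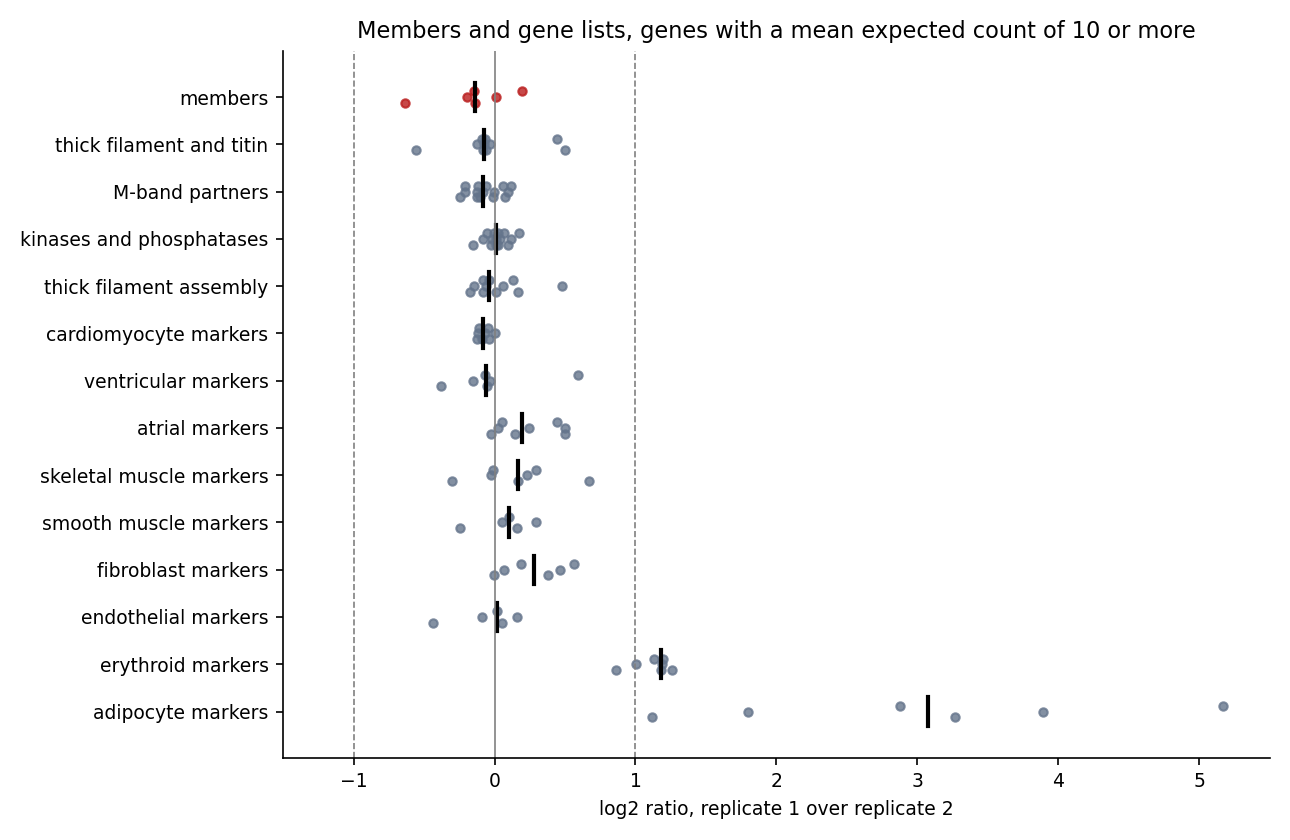
Each point is the log2 ratio of replicate 1 over replicate 2 of a gene averaging at least 10 expected counts, by list, and black bars mark medians. Erythroid markers, with a median of 1.18, and adipocyte markers, with a median of 3.07, hold points beyond the dashed 2-fold lines, and the other lists and the members, with a median of -0.14, do not.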

How the data were processed

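Expected counts per gene and transcript were deposited by the authors in the first quantification, made from transcriptome alignments (mm10, GENCODE M21) per the sample files' notes. The authors deposited TPM and FPKM in the same tables, and each transcript's percent of its gene's TPM. Estimated counts and TPM of a second quantification, made directly from reads and an index, were deposited by the authors and summed here per gene. Tool names and versions: not given in the sources used here. FPKM values are not printed.

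Expected counts were rounded to whole numbers and scaled by TMM (edgeR 4.0.16, R 4.3.3) without spike-ins, and ratios used a prior count of 1. DESeq2 1.42.0 size factors, library totals and spike-in totals were alternatives. Intervals are exact Clopper-Pearson 95% intervals on the counts of both hearts and, like the floor of 3 counts, cover counting error only, as no molecular identifiers are known. The ratio step was tested on simulated data.

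The rule for the members uses symbols alone, but the choice of these genes, like that of the lists, motifs and tests, was made with earlier results of these data known. Named are all members, neighbours in rank and on the chromosome, transcripts holding 5% or more of a gene's TPM, and the 3 highest and all called genes of each list. Neighbours in rank are left out for members under 1 TPM, whose ranks are tied, and erythroid and adipocyte markers are named only where called. Genes outside this rule were chosen after their values were seen. Reads from the CAST allele were quantified against the mm10 reference, and the effect on levels was not tested. Single values of some genes in these lists are not reported here.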

Additional observations from a re-analysis of the deposited data

How the results depend on the processing

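No paired analysis was possible because the study has 1 group. Under other settings than leaving out a heart, 27 of 35 recomputed shares and levels lay more than 1 SD between the hearts from the reported value, and 6 of 40 log2 ratios of members lay outside their counting interval. Among the 27 are the levels of all members with TPM rescaled over nuclear protein-coding genes alone. That smaller total raises every level by construction, for Mybpc3 from 598 to 1581 TPM. All 56 recomputed list medians stayed within 0.1 log2, and all 11 recomputed counts of members within 1.5 times the reported count. By expected counts, Mybpc3 held 98.3% of its family, Myom1 held 59.4% of the myomesins, and myomesins stood at 104% of myosin-binding protein C genes. In the second quantification Myom1 held 60.0%, myomesins stood at 85.7%, the 294-base exon was in 13.7% and the upstream 23-base exon in 10.8% of full-length coding Myom1 TPM. With protein-coding transcripts alone Myom1 held 56.1%, and with the intron-retaining transcript the 294-base exon was in 12.7%. Apart from that rescaling, the cause of these shifts was not tested.

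With either heart alone, the share of Mybpc3 ran from 95.8% to 96.4%, that of Myom1 from 63.9% to 67.0%, myomesins per myosin-binding protein C from 99.8% to 101%, the 294-base exon from 10.1% to 11.6% and the upstream 23-base exon from 0.0035% to 3.99%. The number of members detected was 5 at 5 TPM, 6 at 0.1 TPM and 5 in the second quantification, and the number called stayed 0 under every setting run. Spike-in totals moved the median ratio of all genes with a mean count of 50 or more to -0.074. Mybph, Mybpc1 and Myom3 are limited by depth.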
